A study of Mus musculus with 4 samples.

Results

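Spic-positive cells were the mouse embryonic stem cells (mESC) in which at least 1 unique molecular identifier (UMI, a tag that marks a single captured RNA molecule) of the gene Spic was counted. They numbered 847 of 31989 kept cells, or 2.65%, with 144 in library 1, 562 in library 2, 41 in library 3 and 100 in library 4. Because the cells were chosen by Spic itself, every Spic value is given as a description of how they were selected, and Spic was left out of all other sums. Libraries 1, 2 and 4 held at least 50 such cells and carried the comparisons, while the 41 cells of library 3 are described beside them.

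The study profiled the male mESC line E14tg2a.4 by droplet-based 3′ end single-cell RNA-seq, with 2 wild-type (WT) replicates and 2 replicates of Srrm2 hKO, a single gene-trap clone (CG0630) of the same line in which 1 copy of the splicing factor gene Srrm2 is truncated. According to the labels, both lines were kept on gelatin with LIF and then moved to serum-free ESGRO medium with LIF for 24 h or 72 h, without saying which sample had which. The methods give a single duration for the single-cell experiment, and it is neither of these. The 4 libraries are told apart only by a number in the cell barcode, and no source used here ties a number to WT or Srrm2 hKO, so the genotypes were not compared and each value belongs to a numbered library. Srrm2 itself stood at 388, 538, 238 and 358 CPM (UMI counts scaled to a fixed total) in the other cells of libraries 1 to 4, and no library was given a genotype from these values.

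SPIC is a transcription factor of the ETS family and a close relative of PU.1 (encoded by Spi1) and SPIB. It is best known from the spleen, where red pulp macrophages need it to recycle the iron of old red blood cells and where heme induces it by removing the repressor BACH1. In mESC, Spic is known as a gene of the naive (ground) state of pluripotency, the state of the early epiblast, and its protein has been linked there to one-carbon metabolism genes such as Bhmt, Bhmt2 and Dmgdh. As mESC leave the naive state they pass through a formative state, in which naive factors such as Klf4, Esrrb and Tbx3 go down and Pou3f1, Fgf5 and Dnmt3b go up.

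Spic transcripts were rare in all 4 libraries and most frequent in library 2. The share of kept cells with a Spic UMI was 1.77%, 6.6%, 0.519% and 1.34% for libraries 1 to 4. The exact 95% binomial (Clopper-Pearson) intervals were 1.5 to 2.09, 6.08 to 7.15, 0.373 to 0.704 and 1.09 to 1.63. These intervals, like all those that follow, cover counting error only. As a level, Spic was at 0.875, 3.13, 0.249 and 0.626 CPM in libraries 1 to 4. Library 2 was therefore 3.57-fold above library 1 (95% interval 2.98 to 4.31), 4.99-fold above library 4 (4.07 to 6.18) and 12.5-fold above library 3 (9.2 to 17.5). With every cell thinned to 5000 UMIs, to which no kept cell was too shallow, the shares were 0.542%, 1.43%, 0.0887% and 0.322%, in the same order.

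**Figure D1:**
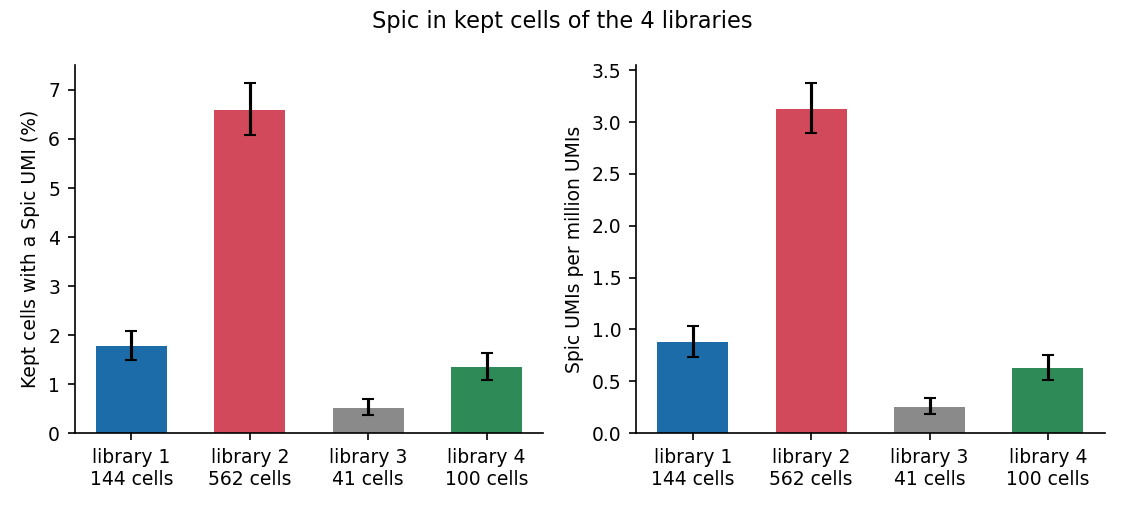
Share of kept cells with a Spic UMI in percent (left) and Spic level in CPM (right) for libraries 1 to 4, with exact 95% counting intervals as error bars and the number of Spic-positive cells under each bar. Library 2 stood above the others on both scales, at 6.6% and 3.13 CPM, and library 3 was lowest, at 0.519% and 0.249 CPM.

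Nearly every Spic-positive cell rested on a single molecule. In library 1, 142 of the 144 cells had 1 Spic UMI and 2 had 2. In library 2, 507 had 1, 48 had 2, 5 had 3 and 2 had 4. In library 3, 39 cells had 1 UMI and 2 had 2, and in library 4 the numbers were 93 with 1, 5 with 2 and 2 with 3. If each library's Spic UMIs had been spread over its cells in proportion to their UMI counts alone, 24.5 cells of library 2 would have had 2 or more, against 55 counted. The same reckoning gave 0.917 against 7 in library 4, 0.139 against 2 in library 3, and 1.5 against 2 in library 1. These numbers describe the values that chose the cells and were not tested. With 1 molecule as the criterion, cells without a Spic UMI cannot be called cells without Spic RNA. Nor does 1 UMI show that a cell expressed Spic, since free RNA can give a UMI in any droplet. Barcodes that the cell filter removed, for low depth or for a high mitochondrial share, held Spic at 0.592, 3.01, 0.621 and 1.37 CPM in libraries 1 to 4, beside 0.875, 3.13, 0.249 and 0.626 in kept cells. The part of free RNA in the class was not tested.

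Spic-positive cells were somewhat deeper than the rest. Their median UMI count was 19742 against 18358 in library 1, 23538 against 21802 in library 2, 20106 against 19404 in library 3 and 23873 against 21394 in library 4. Across deciles of the UMI count in library 2, the share of Spic-positive cells went from 4.93% in the shallowest decile to 11% in the deepest. Cells above 2 times the median UMI count, which can include droplets with a pair of cells, made up 6.94% of the Spic-positive cells of library 1 against 5.51% of the others, 6.76% against 3.23% in library 2, 12.2% against 6.69% in library 3 and 4% against 4.58% in library 4. The median mitochondrial share was 5.76% against 5.4%, 4.24% against 4.09%, 4.35% against 4.52% and 3.78% against 3.51% in libraries 1 to 4. In the ratios of Spic-positive to other cells below, the other cells of a library were therefore weighted to the same distribution over deciles of the UMI count. Of the kept cells, 211 had a barcode sequence found in more than 1 library, 5 of them Spic-positive, and no sequence was Spic-positive in more than 1 library.

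Spic-positive cells were few among the cells with the lowest naive share, which is the share of naive UMIs in the sum of naive and formative UMIs (10 naive and 7 formative genes). Cells of each library were split into quintiles of this share. In library 2 the share of Spic-positive cells was 1.17% in the lowest quintile (95% interval 0.719 to 1.81) and 7.11%, 8.69%, 8.57% and 7.46% in the next 4. In library 4 it was 0% in the lowest quintile, where 0 of 1493 cells allow a share of up to 0.201% by the rule of 3 counts and 0.247% by the exact interval, then 0.201%, 1.21%, 2.88% and 2.41%. Library 3 had 0.0633% in its lowest quintile, a single cell, and between 0.38% and 0.76% in the others. The gradient was shallower in library 1, at 1.11%, 1.54%, 2.22%, 2.65% and 1.36%.

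**Figure D2:**
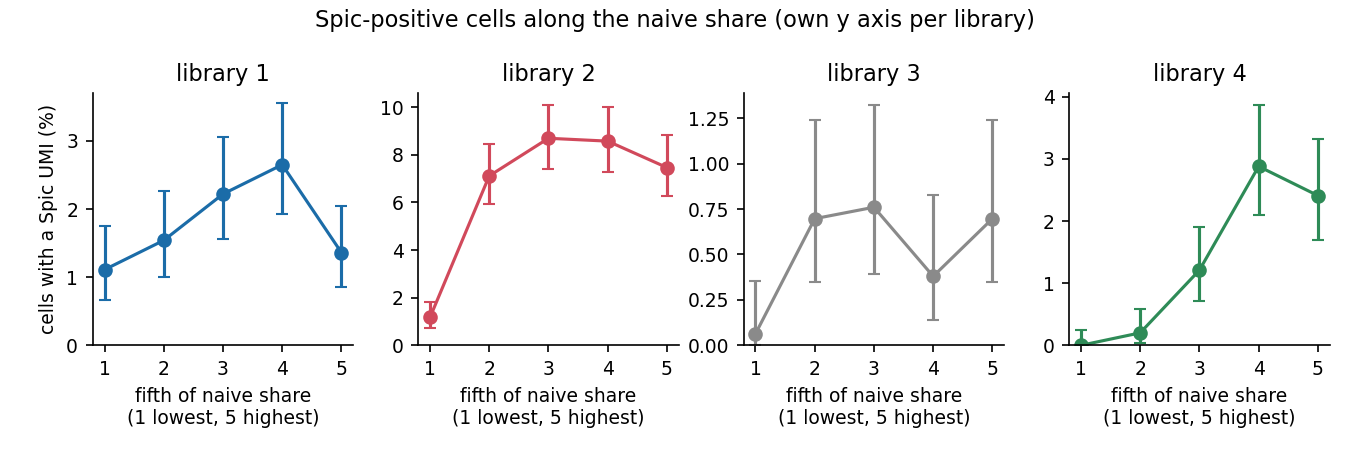
Share of kept cells with a Spic UMI (percent, y axis with its own scale per library) over quintiles of the naive share (x axis, 1 lowest to 5 highest), with exact 95% binomial intervals. In libraries 2 and 4 the lowest quintile, at 1.17% and 0%, lay below the upper 3 quintiles, whereas in library 1 the highest quintile, at 1.36%, was close to the lowest, at 1.11%. These shares were not matched on depth.

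The median depth of the quintiles was similar in libraries 2 and 4. The lowest quintile of library 2 had a median of 22053 UMIs per cell and the highest 20552, and in library 4 these were 20751 and 20583. In library 1 the highest quintile was shallower, at 15964 UMIs against 19556 in the lowest. On the CPM scale Spic was at 0.496 in the lowest quintile of library 2 and between 3.34 and 4.08 in the others. In library 1 it was at 0.5 CPM in the lowest quintile (0.297 to 0.791) and 0.882 in the highest (0.565 to 1.31). The quintiles did not mean the same state in each library, since the median naive share of the lowest quintile was 85% in library 1, 15.2% in library 2, 33.3% in library 3 and 5.71% in library 4. By this measure the lowest quintile of library 1 was no less naive than the middle quintile of library 2, whose median was 81.2%. Over all cells the median naive share of Spic-positive cells was 96.2% against 95.5% for the others in library 1, 84.7% against 81% in library 2, 91.2% against 90% in library 3 and 77.8% against 43.2% in library 4.

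Naive genes were higher and formative genes lower in Spic-positive cells than in other cells of the same depth. Summed over the list, naive genes were at 2110 against 1907 CPM in library 1, 1897 against 1541 in library 2, 1679 against 1362 in library 3 and 1586 against 926 in library 4. The log2 ratios were 0.15 (95% counting interval 0.11 to 0.18), 0.30 (0.28 to 0.32), 0.30 (0.23 to 0.37) and 0.78 (0.73 to 0.82). The largest of these differences was in library 4, in which the other cells were least naive. Of the 10 naive genes, 8 had enough counts in libraries 1, 2 and 4, and all 8 were above 1 as a ratio in each, although none reached 1.5-fold in all 3 libraries. Over all genes with enough counts, 1182 of 7634 were higher and 2392 lower in all 3. "Enough counts" means at least 20 counts expected in the Spic-positive cells of each library if both classes had the same level. Because other cells made up most of each library, a gene passed this rule mostly by its level in other cells. Genes low in other cells and higher in Spic-positive cells could therefore fail it, while genes almost absent from Spic-positive cells could pass. Numbers of higher and lower genes under this rule are thus not a balanced pair.

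The naive genes differed in the size of their ratios. Klf4, a Krüppel-like factor of the naive network, was at 203 against 163 CPM in library 1, 133 against 101 in library 2 and 92.8 against 46.8 in library 4. Esrrb, an orphan nuclear receptor, was at 77.3 against 66, 62.1 against 51.3 and 67.2 against 29.7. Nanog was at 171 against 151, 167 against 126 and 116 against 60.7, and Zfp42 (Rex1), a widely used reporter gene of the naive state, at 552 against 511, 643 against 524 and 623 against 360. Klf5 stood apart from its relatives, with log2 ratios of only 0.02, 0.03 and 0.09 in these libraries and -0.18 in library 3.

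Of the 7 formative genes, 4 had enough counts in the 3 libraries, 3 of them were lower in each, beside 2392 of 7634 over all genes, and 1 was past 1.5-fold. That gene was Pou3f1 (Oct6), a POU factor of the epiblast, at 5.75 against 18.3 CPM in library 1, 34 against 83.9 in library 2, 24.4 against 69 in library 3 and 66.1 against 174 in library 4. The de novo DNA methyltransferase gene Dnmt3b was at 59.4 against 82.4, 259 against 417 and 324 against 599 CPM in libraries 1, 2 and 4, and over all kept cells of these libraries it held 52.9 to 59.1% of the list's counts. Without it the list's log2 ratio was -0.45, -0.52 and -0.54, beside -0.46, -0.62 and -0.73 with it. Fgf5, the growth factor gene that marks the formative epiblast, was too low for the count rule in library 1 but stood at 1.73 against 8.79 CPM in library 2 and 3.15 against 14.7 in library 4. Otx2, which also belongs to the formative network, did not follow the others, with log2 ratios of -0.01, -0.07 and 0.23.

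**Figure D3:**
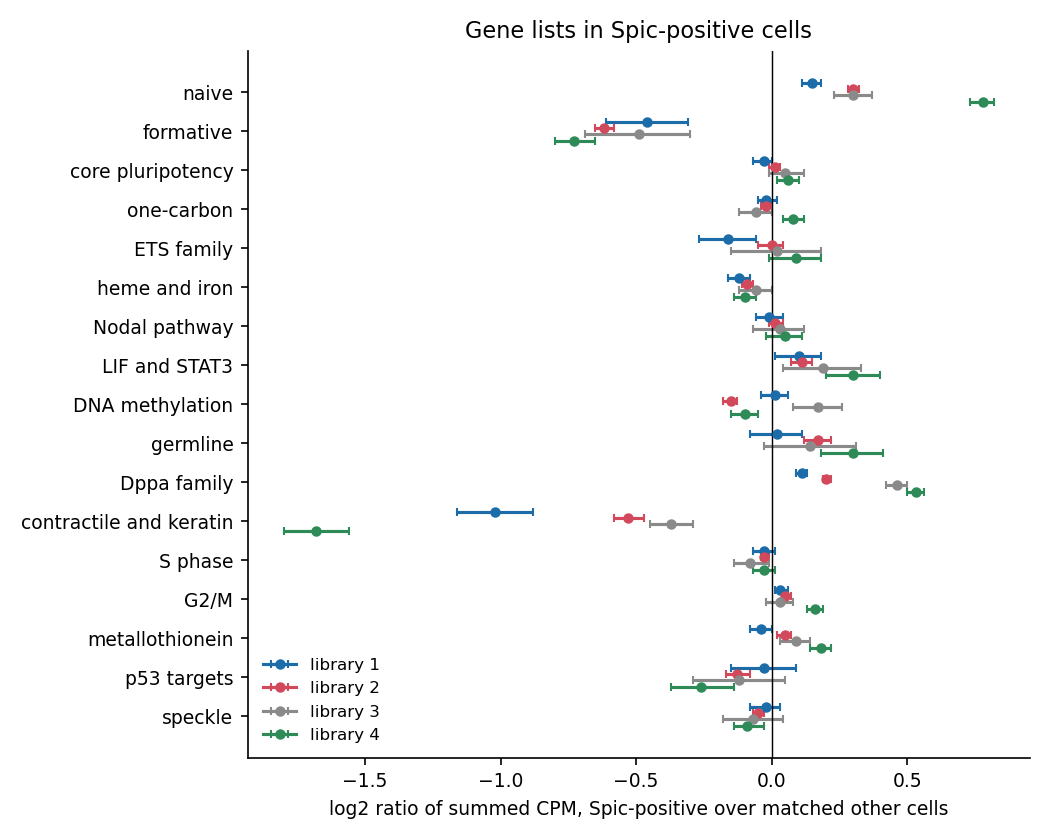
Log2 ratio of summed CPM (Spic-positive over depth-matched other cells, x axis) for the gene lists with at least 100 counts in the Spic-positive cells of libraries 1, 2 and 4, with 95% counting intervals. Naive genes lay to the right and formative, contractile and keratin genes to the left in all 4 libraries, while core pluripotency, one-carbon and S phase genes lay within 0.1 of 0.

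The core pluripotency genes as a group were close to equal, with log2 ratios of -0.03, 0.01 and 0.06 in libraries 1, 2 and 4. Pou5f1 (Oct4) was at 820 against 845, 793 against 794 and 790 against 775 CPM. Within that group the members went in different directions. Sox2 was higher in all 4 libraries, with log2 ratios of 0.15, 0.25, 0.30 and 0.59, and Lin28a, an RNA-binding protein gene that goes up as the naive state is left, was lower in all 4, at -0.29, -0.23, -0.37 and -0.52.

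Across all genes, 7634 had enough counts in libraries 1, 2 and 4. The median log2 ratio over them was -0.03, -0.03 and -0.06. Dppa3 was the 1 gene at least 1.5-fold higher in all 3 libraries, 0.0131% of the genes, and 27 genes were at least 1.5-fold lower in all 3, or 0.354%. Because of the count rule, the numbers of higher and lower genes cannot be weighed against each other. The 7 formative genes gave 1 of these 27, the 10 contractile and keratin genes gave 3, and the 25 ETS family genes gave 1.

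Dppa3 (Stella), a maternal factor gene whose product protects the maternal genome from DNA demethylation in the zygote, and a marker of germ cells and naive mESC, was at 36.7 against 23.8 CPM in library 1, 107 against 71 in library 2, 86.3 against 47.2 in library 3 and 116 against 59.6 in library 4. These values make it 1.54-, 1.5- and 1.94-fold higher in libraries 1, 2 and 4, so library 2 lay at the limit. It was spread over many cells: 44 of 144, 340 of 562, 24 of 41 and 64 of 100 Spic-positive cells had a Dppa3 UMI, and no cell held more than 18.8% of the UMIs. Without the 1 Spic-positive cell with the most Dppa3 UMIs, however, the log2 ratio was 0.49 in library 1 and 0.56 in library 2, both short of 1.5-fold. No cell was taken out of the other class, so this step lowers the ratio by design. Without the matching on depth, library 2 fell just short of the limit, at 0.58 on the log2 scale. When the other cells were also matched on naive share, the log2 ratios of Dppa3 were 0.60, 0.37 and 0.33.

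The genes that came next were higher in all 3 libraries without reaching 1.5-fold in each. Kit, the receptor gene for stem cell factor, was at 21.7 against 15.2, 21.6 against 15.1 and 16.5 against 8.3 CPM, but at 9.14 against 9.29 in library 3. Jam2, a junctional adhesion molecule gene, was at 128 against 95.1, 99.3 against 68.5 and 83 against 30.8. Alpl, whose product is the alkaline phosphatase used to stain pluripotent colonies, was at 51.1 against 40.4, 45.2 against 31.3 and 43.7 against 17.1. The other 11 in order of their smallest log2 ratio were Rpl39l, Ly6g6e, Ccpg1, Msrb2, Zfp936, Lima1, Gm21411, Smtnl2, Klf4, Fbrsl1 and Ildr1, with smallest log2 ratios from 0.31 to 0.44 among them. Their ratios in library 4 reached 1.47 on the log2 scale, for Ly6g6e.

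**Figure D4:**
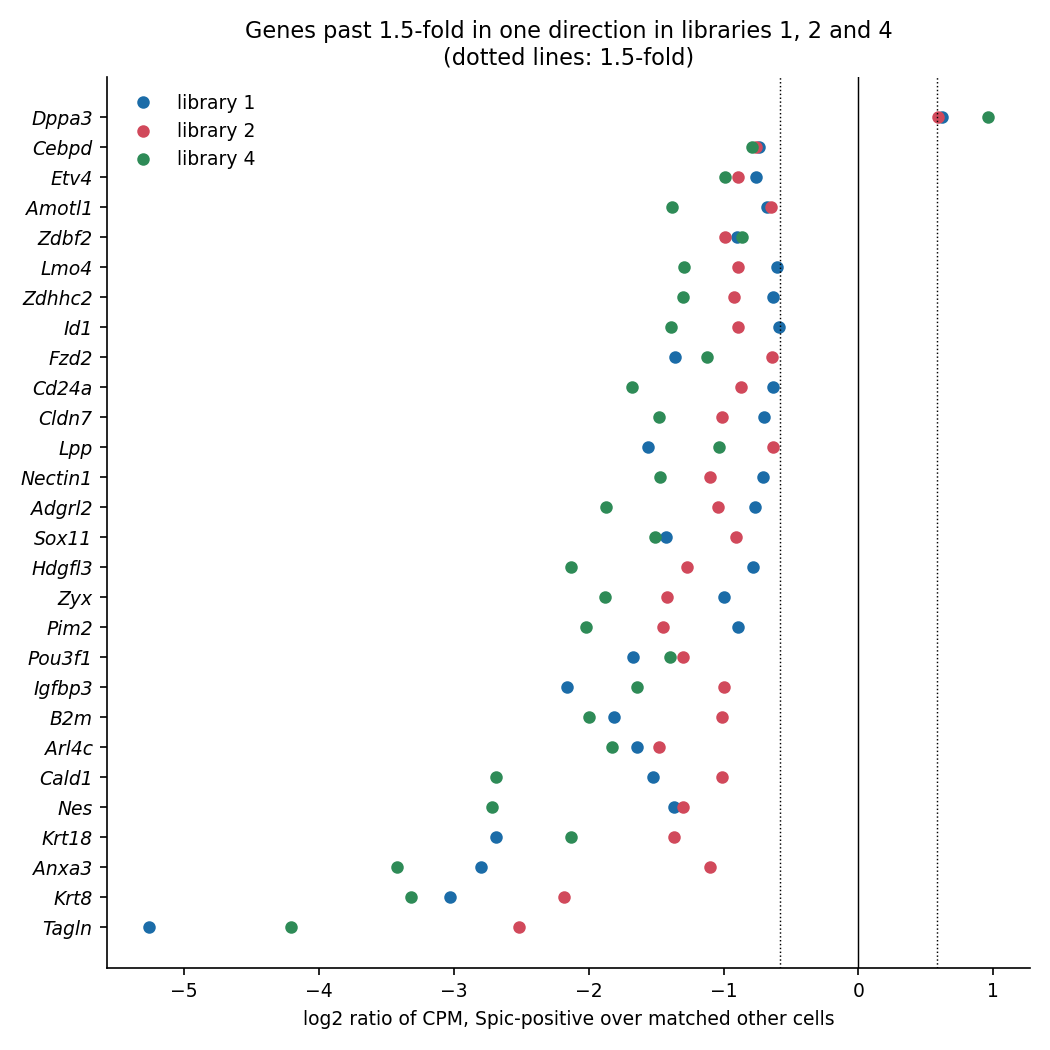
Log2 ratio of CPM (Spic-positive over depth-matched other cells, x axis) for the 28 genes past 1.5-fold in the same direction in libraries 1, 2 and 4, ordered by their mean. Dppa3 is the single gene on the right, with 0.62, 0.59 and 0.96, and Tagln is farthest to the left, with -5.26, -2.52 and -4.21.

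The genes that were lowest in Spic-positive cells included several genes of the cytoskeleton. Tagln (transgelin), an actin-binding protein gene of smooth muscle, was at 0.639 against 24.5 CPM in library 1, where it had 2 UMIs (log2 ratio -5.26, counting interval -7.26 to -3.26), 3.04 against 17.4 in library 2 and 6.29 against 117 in library 4. In library 2, 29 of its 44 UMIs came from 1 cell. Krt8, a keratin gene of simple epithelia, was at 2.87 against 23.5, 3.24 against 14.7 and 7.47 against 74.7 CPM, and its partner Krt18 at 3.19 against 20.6, 6.28 against 16.2 and 15.7 against 68.7. Cald1 (caldesmon) was 2.87-, 2.01- and 6.44-fold lower, and B2m, the light chain gene of MHC class I, 3.51-, 2.01- and 4-fold lower. Anxa3 (an annexin gene) was at 1.28 against 8.88, 1.66 against 3.55 and 1.18 against 12.6 CPM, the last from 3 UMIs, and Igfbp3 at 1.6 against 7.13, 3.38 against 6.76 and 4.33 against 13.5.

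Of the lowest 10, only Tagln, Krt8 and Krt18 were on the contractile and keratin list. Nes (nestin), an intermediate filament gene of neural progenitors, was 2.59-, 2.46- and 6.58-fold lower, and Arl4c, a small GTPase gene, 3.11-, 2.79- and 3.55-fold lower, in libraries 1, 2 and 4. Pou3f1, given above, completes these 10. The other 17 were Adgrl2, Amotl1, Cd24a, Cebpd, Cldn7, Etv4, Fzd2, Hdgfl3, Id1, Lmo4, Lpp, Nectin1, Pim2, Sox11, Zdbf2, Zdhhc2 and Zyx. Among these, Sox11, a neural SOX factor gene, was at 5.11 against 13.8, 25.2 against 47.5 and 25.6 against 73 CPM, and the kinase gene Pim2 at 15.7 against 29, 34.9 against 95.3 and 42.9 against 174. Genes were counted by the ratio alone, and some intervals reached the level of other cells. In library 1, without matching on depth, Amotl1 was at 4.79 CPM (2.68 to 7.9) against 7.48. Nectin1 was at 4.15 (2.21 to 7.1) against 6.67 there, and the intervals of Hdgfl3 and Zdhhc2 also held the level of other cells.

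The contractile and keratin list as a whole was at 128 against 260 CPM in library 1, 196 against 282 in library 2, 1273 against 1640 in library 3 and 228 against 731 in library 4. The tropomyosin gene Tpm1, its most abundant member over all kept cells, gave 306 of 401, 1894 of 2839, 328 of 1254 and 355 of 581 UMIs of the list in Spic-positive cells, and without it the log2 ratios were -1.90, -0.85, -0.29 and -2.27, beside -1.02, -0.53, -0.37 and -1.68 with it. All 5 members with enough counts were lower in libraries 1, 2 and 4, beside 2392 of 7634 over all genes. Without the 2% of kept cells highest in the UMIs of this list, described next, its log2 ratios in libraries 1, 2 and 4 were -0.19, -0.22 and -1.15.

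Which of these 27 genes stayed past the limit depended on which cells were taken out or matched. In each library a small set of cells carried much of the contractile and keratin RNA. The 2% of kept cells highest in these UMIs held 95.1% of all Tagln UMIs and 83.4% of all Krt8 UMIs in library 1, 83.3% and 54.3% in library 2, 44% and 41.2% in library 3, and 53.7% and 56.7% in library 4. These cells numbered 163, 171, 158 and 150, and 0, 2, 1 and 0 of them were Spic-positive. With them left out of both classes, a choice made after the values were seen and one that uses Tagln, Krt8 and Krt18 themselves, 5 of the 27 genes were still past 1.5-fold in all 3 libraries, namely Arl4c, Etv4, Pou3f1, Sox11 and Zdbf2. In library 1 the Krt8 ratio went from -3.03 to -0.38 on the log2 scale. Anxa3, B2m and Igfbp3, which were not used to pick these cells, were no longer past the limit in all 3 libraries, and neither was Dppa3, at 0.57, 0.55 and 0.93. Matching the other cells on naive share as well as depth left a different set of 7, namely Anxa3, B2m, Etv4, Igfbp3, Krt18, Krt8 and Tagln. Pou3f1 was then at -0.90, -0.07 and -0.16, but it is a formative gene that enters the naive share, so this matching itself draws its ratio towards 0. Etv4 was the single gene in both sets.

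Spic-positive cells of library 3 gave a further view of these rare cells. There, 1 cell held 268 of 284 Acta2 UMIs, 143 of 181 Krt8 UMIs came from 1 cell, and 146 of 175 Tagln UMIs also came from 1 cell. The top cell of each gene was then taken out of the Spic-positive class alone. The log2 ratio was -2.94 for Acta2, against 1.20 with it, -2.80 for Krt8 against -0.55, and -3.48 for Tagln against -0.89. The other class kept its own highest cells, so the ratios without the top cell are not a like comparison of both classes. For each of these genes the level of the 41 Spic-positive cells thus rested largely on 1 cell.

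Library 2, with the most Spic-positive cells, allowed 11467 genes to be compared. Of these, 59 were at least 1.5-fold higher (0.515%) and 432 at least 1.5-fold lower (3.77%). For 7 of the 59 and 107 of the 432 the whole counting interval lay past 1.5-fold. The 7 were picked out after their values were seen. Tbx3, a T-box factor gene of the naive network, was at 21.9 against 9.87 CPM in library 2, a 2.22-fold difference, and at 97.4 against 73.9 in library 1, 69 against 33.8 in library 3 and 7.47 against 3.56 in library 4. With the other cells matched on naive share as well, its log2 ratio was 0.27, 0.86 and 0.23 in libraries 1, 2 and 4, against 0.40, 1.15 and 1.07 without, the last from 19 UMIs. In library 2, Zfp42 went from 0.29 to 0.05 and Esrrb from 0.28 to 0.02. All 3 of these genes enter the naive share. Calcoco2 (NDP52), an autophagy receptor gene, was at 31.1 against 12.1 CPM in library 2, 18.3 against 7.65 in library 3, 14.6 against 6.2 in library 4 and 6.07 against 5.24 in library 1. Its 450 UMIs in library 2 came from 172 of the 562 cells, with at most 16 in a cell.

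Khdc3 (Filia), a gene of the maternal complex of the egg and early embryo, was at 54.2 against 29.9 CPM in library 2 and 83 against 27.6 in library 4, but at 55.3 against 49 in library 1 and 38.6 against 37.7 in library 3. Sgo2b, a shugoshin gene, was at 8.35 against 4.23 in library 2, with too few counts for the count rule in libraries 1 (3 UMIs, 0.958 against 1.19) and 4 (13 UMIs, 5.11 against 1.91). The homeobox gene Crxos was at 3.87 against 1.66 and the gene model Gm20548 at 2.76 against 1.31 in library 2, with too few counts elsewhere for the count rule. The largest ratio of all in library 2, that of Gm21761 at 1.56 on the log2 scale, came from 1 cell, which held 75 of its 83 UMIs. Without that cell, and with the other class left whole, the ratio was -1.81.

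At equal depth the same genes could be read as shares of cells. With all cells thinned to 5000 UMIs, Dppa3 was found in 16% of Spic-positive and 8.5% of other cells in library 1, 29.5% and 23.2% in library 2, and 37% and 19% in library 4. Tbx3 was found in 42.4% and 29.8%, 10.5% and 4.38%, and 5% and 1.78%. In libraries 1 and 2 the binomial intervals of the 2 classes did not overlap for Tbx3, whereas in library 4 they did (1.64 to 11.3 against 1.49 to 2.11). Klf4 was found in 63.2% and 53.2%, 48.9% and 36.2%, and 35% and 17.9%. Dppa3, Tbx3 and Klf4 had been named above for higher counts in these same cells. Their larger shares follow largely from that choice and add no separate support, whether or not the intervals overlapped.

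In libraries 2 and 4 all 27 lower genes were found in a smaller share of Spic-positive than of other cells, but in library 1 Amotl1, Lmo4, Nectin1 and Zdbf2 were not. The 27 were chosen by their lower counts in these same cells, so smaller shares follow largely from that choice and add no separate support. Pou3f1 was found in 3.47% of Spic-positive and 4.68% of other cells in library 1, where the intervals overlapped, 11.4% and 22.3% in library 2, and 17% and 42.4% in library 4. Tagln was found in 0.694% and 1.67%, 0.178% and 2.25%, and 4% and 13.6%, with overlapping intervals in library 1. Among other cells, too, Tagln was found in fewer cells than Pou3f1 in all 3 libraries.

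**Figure D5:**
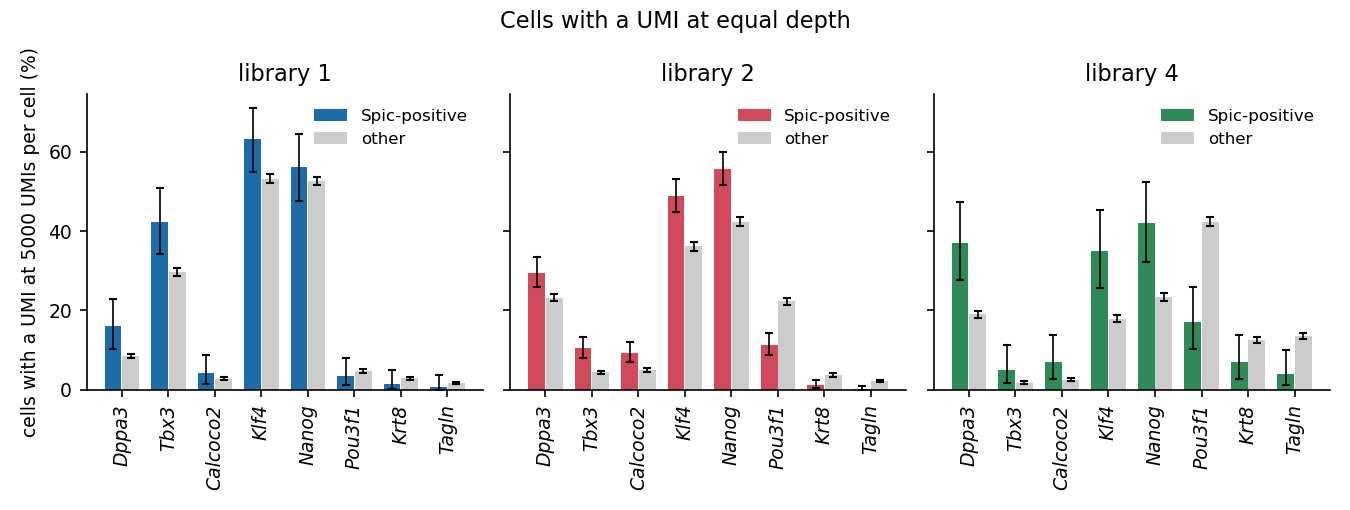
Share of cells with at least 1 UMI of a gene (percent, y axis) after thinning every cell to 5000 UMIs, for Spic-positive cells (coloured) and other cells (grey) of libraries 1, 2 and 4, with exact 95% binomial intervals. Dppa3, Tbx3, Calcoco2, Klf4 and Nanog were found more often and Pou3f1, Krt8 and Tagln less often in Spic-positive cells. The intervals overlapped for Calcoco2, Nanog, Pou3f1, Krt8 and Tagln in library 1 and for Tbx3, Calcoco2 and Krt8 in library 4.

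The 27 one-carbon genes, a group linked to SPIC in mESC, were close to equal as a sum, while single members differed in direction. The sum had log2 ratios of -0.02, -0.02 and 0.08 in libraries 1, 2 and 4. Of the 19 with enough counts, 0 were past 1.5-fold in all 3, beside 1 higher and 27 lower of 7634 over all genes. So few genes passed that 0 of 19 says nothing particular about this group. Bhmt and Bhmt2, which encode methyltransferases that make methionine from homocysteine, and Dmgdh, the dimethylglycine dehydrogenase gene, were almost undetected, with 3, 1 and 2 UMIs among the 562 Spic-positive cells of library 2 and 0, 0 and 0 among the 144 of library 1. Tdh, the threonine dehydrogenase gene on which mESC depend, had the most counts of them in library 2 and was at 662 against 627, 608 against 536 and 532 against 301 CPM. The serine synthesis gene Psat1 was lower in all 4 libraries, with log2 ratios of -0.21, -0.26, -0.44 and -0.20.

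The heme and iron genes were slightly lower as a sum, with log2 ratios of -0.12, -0.09 and -0.10, mostly from the ferritin heavy chain gene Fth1 at 1177 against 1307, 1333 against 1450 and 1425 against 1564 CPM. Hmox1, the heme oxygenase gene, had ratios of -0.34, 0.06 and 0.08, and Bach1 0.01, 0.16 and 0.02. None of the 7 heme and iron genes with enough counts was past 1.5-fold in all 3 libraries, beside 1 higher and 27 lower of 7634 over all genes. So few genes passed that this says nothing particular about the 7.

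Most macrophage markers were not detected in these cells. Of the 14 macrophage genes, 4, 5, 2 and 1 had a UMI in Spic-positive cells of libraries 1 to 4, and the summed level ranged from 8.42 to 23.6 CPM in them and from 5.68 to 17.7 CPM in other cells. The sum was higher in Spic-positive cells of each library, with log2 ratios of 0.41 (0.08 to 0.75), 0.13 (-0.14 to 0.40), 0.23 (-0.59 to 1.05) and 0.61 (-0.00 to 1.22). Cd68, a lysosomal gene that many cells use, gave 69 of 74, 109 of 122, 11 of 12 and 22 of 22 of these UMIs in Spic-positive cells. Without Cd68 the log2 ratio was -0.00, 0.34 (-0.48 to 1.17) and -0.73 (-3.56 to 2.10) in libraries 1 to 3, and no UMI was left in library 4. Adgre1 (F4/80), C1qa, C1qb, Lyz2, Ptprc (CD45), Tyrobp and Vcam1, the last a marker of the red pulp macrophage, were at 0 UMIs in the Spic-positive cells of all 4 libraries.

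Of the ETS relatives, Spi1 had 3, 6, 0 and 0 UMIs and Spib 0, 5, 1 and 1 in the Spic-positive cells of libraries 1 to 4. Etv4, which like Etv5 responds to FGF signalling, was at 15.7 against 26.5, 11 against 20.5 and 12.2 against 24.1 CPM in libraries 1, 2 and 4, but at 36.5 against 37.3 in library 3. Etv5 itself was at 70.6 against 72.6, 129 against 122 and 145 against 116. The summed ETS list was at -0.16, -0.00 and 0.09 on the log2 scale.

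The other pluripotency-linked lists had smaller ratios than the naive genes in library 4. The LIF and STAT3 genes were at log2 ratios of 0.10, 0.11 and 0.30 in libraries 1, 2 and 4, with the receptor genes Lifr at 0.46, 0.23 and 0.45 and Il6st at 0.13, 0.35 and 1.04. The kinase gene Pim1 was at 0.19, 0.12 and 0.25, Socs3 at 0.01, -0.10 and 0.23, and the homeobox gene Gbx2 at -0.31, -0.40 and 0.53. The Dppa family was at 0.11, 0.20 and 0.53, with 90.8 to 95.5% of its counts over all kept cells from Dppa5a. Among the DNA methylation genes, Tet2, which oxidises methylcytosine, was at 0.19, 0.42 and 1.02 and Tet1 at 0.10, 0.12 and 0.47, against -0.47, -0.69 and -0.89 for Dnmt3b, and the sum was at 0.01, -0.15 and -0.10. The germline list was at 0.02, 0.17 and 0.30. Of its 4 genes with enough counts, 1 was past the limit, Dppa3, the 1 higher gene of 7634. Of these 4, 2 were higher in all 3 libraries, Dppa3 among them, and 2 lower, Ddx4 and Sycp3. Over all genes, 1182 of 7634 were higher and 2392 lower in all 3. The Nodal pathway was at -0.01, 0.01 and 0.05, and its inhibitor gene Lefty2 at 0.04, 0.33 and 0.89.

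S phase genes were at -0.03 in each of libraries 1, 2 and 4. G2/M genes were slightly higher, at 0.03 (0.01 to 0.06), 0.05 (0.04 to 0.07) and 0.16 (0.13 to 0.19). The metallothionein genes were at -0.04, 0.05 and 0.18, the p53 targets at -0.03, -0.13 and -0.26, and the speckle genes Srrm1, Srrm2 and Son at -0.02, -0.05 and -0.09. Srrm2 in Spic-positive cells stood at 382, 510, 212 and 330 CPM in libraries 1 to 4, with log2 ratios of -0.02, -0.08, -0.17 and -0.12 to the others.

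Markers of other cell types were sparse in Spic-positive cells. Primitive endoderm genes summed to 0.319, 1.31 and 1.97 CPM in libraries 1, 2 and 4 against 1.67, 1.92 and 3.93 in other cells, trophectoderm genes to 5.75, 3.52 and 5.9 against 4.48, 4.62 and 8.12, streak genes to 2.56, 3.31 and 3.93 against 3.33, 4.82 and 4.64, and fibroblast genes to 0.639, 4.97 and 2.75 against 2.52, 5.51 and 7.06. In library 3 primitive endoderm and trophectoderm genes were at 3.05 and 5.08 CPM against 5.27 and 13.1. Streak and fibroblast genes went the other way there, at 6.09 and 17.3 against 4.6 and 12, from 6 and 17 UMIs. Genes of the two-cell-like state had 13 UMIs in Spic-positive cells of library 2, 12 of them in 1 cell, and 0 in the other 3 libraries. In library 2 this made 0.897 against 0.381 CPM in other cells.

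Spic (ENSMUSG00000004359) lies on the minus strand of chromosome 10 at 88674772 to 88685015 (GRCm38, GENCODE M21), with no annotated gene overlapping it. On the side of its promoter, Arl1 (plus strand, 88730858 to 88744094), stood at 0.03, -0.08 and -0.11 on the log2 ratio scale for libraries 1, 2 and 4, and Utp20 beyond it (minus strand, 88746607 to 88826804) had -0.35 (counting interval -0.61 to -0.08), -0.08 and -0.03. On the other side, Mybpc1 (minus strand, 88518279 to 88605152) had 2, 1 and 0 UMIs in the Spic-positive cells of these libraries, and Chpt1 (minus strand, 88452745 to 88504073) was at 0.25, 0.27 and -0.09.

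In library 2 the 55 cells with 2 or more Spic UMIs could be set beside the 507 with 1 and the 7952 with none. These classes were not matched on depth, and their median UMI counts were 24148, 23524 and 21802. The intervals given here count UMIs and leave out the spread between cells, so whether they overlap was no test of a trend. Naive genes were at 1550 CPM with none (95% interval 1545 to 1556), 1891 with 1 (1868 to 1915) and 1948 with 2 or more (1878 to 2021). Formative genes were at 682, 452 and 488 CPM, and contractile and keratin genes at 273, 198 and 181. For these 3 lists the step from none to 1 was larger than that from 1 to more, where the intervals overlapped. Other lists went otherwise, with G2/M genes at 3308, 3513 and 3812 CPM and the Dppa family at 3681, 4223 and 3976, and the intervals of the last 2 classes did not overlap for either. Among single genes, Khdc3 was at 30.9, 52.2 and 72.1 CPM, with an interval of 59 to 87.2 in the last class that did not reach the 48.3 to 56.2 of the middle one. For every other single gene followed in this way, the intervals of these classes overlapped. Khdc3 had also been picked out after its values in these cells were seen. Dppa3 was at 71.4, 106 and 112, and Tbx3 at 10.1, 21.7 and 23.1.

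The same comparison was made on a UMI of Nanog, Dppa3, Lefty2 and Tbx3. The shares that follow were not matched on depth. In library 2, 93.2% of Spic-positive cells had a Nanog UMI, 60.5% a Dppa3 UMI, 55.7% a Lefty2 UMI and 27.2% a Tbx3 UMI, against 81.1%, 49%, 44.4% and 15.7% of all kept cells. Read from the other side, 7.59%, 8.16%, 8.28% and 11.5% of the cells with a UMI of these genes were Spic-positive. In library 4, 88%, 64%, 36% and 15% of Spic-positive cells had these UMIs, against 55.7%, 40.9%, 20.4% and 6.12% of all kept cells. The naive list, without the gene split on, was at 0.36 for the Tbx3 split and 0.29 for the Dppa3 split of library 2, beside 0.30 for Spic, and at 0.78 and 0.79 beside 0.78 in library 4. The Nanog split gave larger values, at 1.15 in library 2 and 1.28 in library 4. The Lefty2 split gave 0.28 and 0.45 in these libraries. In library 1 the values were 0.60 for Nanog, 0.42 for Tbx3, 0.07 for Dppa3 and -0.00 for Lefty2, beside 0.15 for Spic. Contractile and keratin genes were at -1.04, -0.54 and -1.20 in libraries 1, 2 and 4 for the Dppa3 split, beside -1.02, -0.53 and -1.68 for Spic, and formative genes at -0.27, -0.53 and -0.48, beside -0.46, -0.62 and -0.73. For the Tbx3 split these were -1.89, -0.55 and -0.21, and -1.14, -0.88 and -0.92. For Nanog they were -2.96, -1.11 and -1.33, and -1.21, -1.29 and -0.68, and for Lefty2 -0.23, -0.51 and -0.49, and -0.06, -0.65 and -0.46. The number of genes past 1.5-fold in all 3 libraries was 298 higher and 844 lower of 14628 for Nanog, 9 and 297 of 11341 for Tbx3, 8 and 222 of 12850 for Dppa3 and 5 and 10 of 12740 for Lefty2, beside 1 and 27 of 7634 for Spic. The classes differ in size and overlap in part, and none of these differences was tested.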

How the data were processed

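Single-cell libraries were made with the Chromium 3′ v3 kit. The authors aligned them to mm10 with Cell Ranger 6.1.2 and joined the 4 libraries by its aggregation step, which evens out depth, and deposited raw UMI counts for 32285 genes and 41142 barcodes. Cells were kept per library when UMIs and detected genes were each at least the mean minus 1 SD and the mitochondrial share was at most 10%. Kept cells held 166839268, 200180473, 172407338 and 174050451 UMIs in libraries 1 to 4, where 3 counts, the floor for a count of 0, equal 0.015 to 0.018 CPM. No doublet caller was run.

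Counts were summed over Spic-positive and other cells of a library, with the other cells weighted to the Spic-positive distribution over UMI deciles, and expressed as CPM without Spic (python 3.11.15, numpy 2.4.6, scipy 1.17.1). Genes were counted when libraries 1, 2 and 4 all showed a ratio of 1.5-fold or more one way, with 20 expected counts in each. Log2 ratios carry 95% counting intervals, and shares and levels carry exact binomial and Poisson intervals. Libraries could not be tied to samples and cells are not replicates, so no p-value, SD or test between genotypes was computed. The comparison was run on simulated class sums with known changes, drawn as independent counts. These held no genes with many UMIs in 1 cell, so that run cannot speak for such genes or their counting intervals. The members, the 23 gene lists and the alternatives were chosen with earlier results of these data known. Named genes were the counted ones, filled to 15 higher and 10 lower by the smallest absolute log2 ratio over the libraries, the list members and the neighbours of Spic. Alternatives covered the cell filter, thinning to 5000 UMIs, the matching, scaling, count minimum, fold, Spic threshold and each library left out. Positions are from GENCODE M21 on GRCm38.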

Additional observations from a re-analysis of the deposited data

Results flagged for a closer look

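Spic was also counted in barcodes that the cell filter had removed, which entered no comparison. These barcodes had a median of 2428 to 3216 UMIs. Their Spic level was 3.01 CPM in library 2 (34 UMIs, 95% interval 2.09 to 4.21), beside 3.13 in its kept cells. It was 1.37 in library 4 (11 UMIs, 0.683 to 2.45), beside 0.626, and 0.621 in library 3 (4 UMIs, 0.169 to 1.59), beside 0.249. Library 1 had 3 UMIs there, which is the floor taken for a count of 0. The intervals of removed barcodes and kept cells overlapped in library 3 (0.18 to 0.336 in kept cells) and in library 4 (0.514 to 0.755 in kept cells). These values were singled out because they lie in data outside the comparisons.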

How the results depend on the processing

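No paired analysis was possible because the library numbers are not tied to the labelled samples and their replicate numbers. The main counts were 1 gene higher and 27 lower. The genes higher numbered 0 without matching on depth, when also matched on naive share, at 2-fold and without the 2% of cells highest in contractile and keratin UMIs, and 3 at a minimum of 5 expected counts. The genes lower numbered 7 of 7634 tested when also matched on naive share. At minimums of 50 and 5 expected counts they numbered 11 of 5103 and 112 of 10550. They numbered 9 of 7634 at 2-fold, 5 of 7589 without that 2% of cells and 14 of 5184 with library 3 also used. The last 2 alternatives were chosen after seeing the data. A higher count minimum, a higher fold or an added library can only keep or lose genes of the 27. A lower count minimum cannot lose any. Leaving out 1 library in turn gave 1 to 3 genes higher and 28 to 142 lower, with the 142 without library 1 and 54 without library 2. With fewer libraries to pass, these counts of lower genes cannot fall below 27 and say nothing on stability. The lower genes without cells over 2 times the median UMI count numbered 20, of which 14 were among the 27.

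The share of Spic-positive cells was 0.542%, 1.43%, 0.0887% and 0.322% after thinning to 5000 UMIs and 0.0246%, 0.646%, 0.0253% and 0.0938% with at least 2 UMIs, and over all barcodes 5.07% in library 2 and 1.09% in library 4. Thinned, or with at least 2 UMIs, only library 2 held 50 such cells, so no gene count over 3 libraries was made.

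Matched also on naive share, which uses the same genes, the log2 ratios in libraries 1, 2 and 4 were 0.06, 0.07 and 0.11 for naive genes, -0.09, 0.01 and 0.07 for formative genes, the last 2 reversed, and -0.63, -0.30 and -1.42 for contractile and keratin genes. That matching also reversed LIF and STAT3 genes in library 2 (-0.00), DNA methylation genes in library 4 (0.06) and metallothionein genes in libraries 2 (-0.01) and 4 (-0.04). Naive genes were at 0.33 and 0.85 in libraries 2 and 4 with median-of-ratios scaling, which turned one-carbon genes to 0.01 and S phase genes to 0.00 in library 2. In library 2 with at least 2 Spic UMIs, naive genes were at 0.35, formative at -0.54, contractile and keratin at -0.68 and metallothionein, reversed, at -0.10. In library 2 thinned, naive genes were at 0.35, formative at -0.48 and one-carbon, reversed, at 0.02. Formative genes were at -0.58 in library 2 without matching. Without cells over 2 times the median UMI count, formative genes were at -0.82 in library 4 and contractile and keratin genes at -0.79 in library 1. Without the 2% of cells, naive genes were at 0.11 and 0.28 in libraries 1 and 2, and contractile and keratin genes at -0.19, -0.22 and -1.15 in libraries 1, 2 and 4. The cause was not tested for any of these. Of 382 values of the other lists, 310 stayed within their counting interval, 64 moved past it and 8 reversed.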
